A study of Astyanax mexicanus with 12 samples.

Results

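Liver RNA of Astyanax mexicanus was compared between the cave form and the surface form across both environments in which the fish were taken. A gene belonged to the shared form difference when it passed 3 conditions. It had an adjusted p under 0.05 for form in an additive model of form and environment, its difference had the same sign in wild-caught and in laboratory fish, and its 6 cave livers did not overlap its 6 surface livers. Of 12895 tested genes among the 27420 of the table, 587 met these conditions. The study asked how environment and form each bear on gene expression in this fish. Adult livers were taken after 12 hours of fasting from 4 groups of 3 fish: Pachón cavefish caught in the wild, Pachón cavefish of the laboratory, surface fish caught in the wild and surface fish of the laboratory. The cave form is represented by the Pachón cave alone, and the sources used here do not give the surface population, the sex or the age in years. No agent or genetic change was applied to any group, and all 4 groups were fasted alike.

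Astyanax mexicanus has eyed, pigmented populations in rivers and eyeless, pale populations in caves, which can interbreed. Cave populations live in the dark and depend on scarce food carried in from outside, and they are known for fat storage, altered daily rhythms and resistance to starvation. The liver makes most plasma proteins, stores and releases fuel, and breaks down amino acids, hormones and foreign compounds, so differences between the forms in this organ touch each of these functions.

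Levels are given in scaled TPM. TPM is the deposited transcript abundance, corrected for transcript length and for the library total, and each library was then divided by its median-of-ratios factor, which ranged from 0.572 to 1.37 over the 12 livers. Differences are cave minus surface on the scale of log2(scaled TPM + 1), with the standard error from limma; on this scale the change of a low gene is understated. Genes called in this model have a Benjamini-Hochberg adjusted p under 0.05 over all tested genes. TPM keeps no read number, so the depth behind each value is unknown. The tissue label was checked by 24 hepatocyte markers, of which 16 were in the table and all 16 were tested. Their summed level ranged from 91320 to 259632 scaled TPM, and none was at 0 in every library. On the first principal component, which held 40.6% of the variance, surface wild libraries 1 and 2 lay apart at 112.1 and 101.4, against -55.7 to 37.0 for the other 10. Since these libraries are bulk tissue, fewer cells of a type and less RNA per cell cannot be told apart.

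The additive model called 1653 genes (12.8% of those tested), 945 higher (7.33%) and 708 lower (5.49%) in cave livers. Libraries of the forms did not overlap for 630 genes (4.89%), 384 higher (2.98%) and 246 lower (1.91%). The 587 genes that met both conditions (4.55%) comprised 365 that were higher in cave livers (2.83%) and 222 that were lower (1.72%). Their agreement in direction between environments is fixed by the absence of overlap and is no result of its own. The higher genes had a median log2 difference of 1.5 in wild-caught and 1.37 in laboratory fish. The lower genes had medians of -1.28 and -1.25, and all tested genes had a median of -0.03 in each environment. Among the 587, the form difference was past the threshold within wild-caught fish for 492 and within laboratory fish for 332; it was past it in both for 285 and in neither for 48. Over all tested genes, 2309 passed within wild-caught fish (17.9%) and 763 within laboratory fish (5.92%), with 322 in both in the same direction (2.5%). A call in one environment alone does not show that the environments differ.

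**Figure D1:**
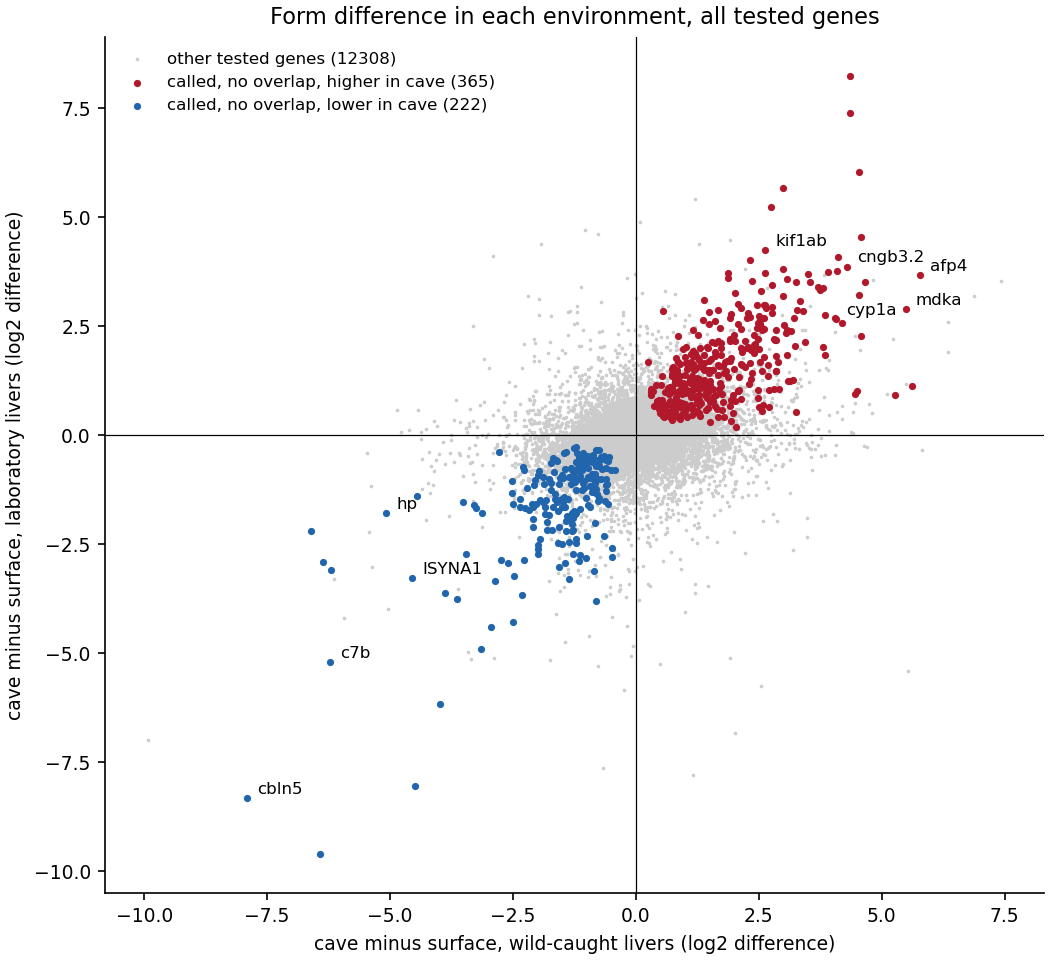
Cave minus surface log2 difference in wild-caught livers (x axis) and laboratory livers (y axis), 1 point for each of the 12895 tested genes; red and blue points are the 365 higher and 222 lower genes called without overlap. The coloured points lie at the upper right and lower left by construction, and cbln5 lies farthest down among the labelled genes.

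The split between directions depended on scaling. With TPM as deposited, the median log2 difference of all tested genes was -0.18, in place of -0.02 after scaling, and 42.6% of called genes were higher in cave livers, in place of 57.2%. The share of higher genes among those called without overlap was then 41.5%, in place of 62.2%, with 194 higher genes. Of the 587 genes, 345 met all conditions with TPM as deposited, 528 with quantile scaling and 472 without surface wild 1 and 2. Without surface lab 3 the number of shared genes was 888, and with a filter at 5 TPM it was 317.

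The level of vtg3, which encodes a yolk precursor that egg-laying females make in the liver, was not called for form (limma adjusted p = 0.091). Means were 2012 scaled TPM in cave wild against 54.4 in surface wild livers, and 334 in cave lab against 377 in surface lab livers. Over both environments it was 84.6 at the lowest, 620 at the median and 3009 at the highest in cave livers, against 4.15, 77.5 and 634 in surface livers. The groups overlapped, and an exact permutation of form labels within environments gave a two-sided p of 0.065 (adjusted over 21 library values, 0.171). With the log2 level of this gene as a covariate, 566 genes were called and 356 were shared, of which 355 were among the 587. Of the 112 genes examined by name, 48 lost their call in that fit, among them hp, TINAGL1, khk, cox5b2, txnrd3 and lepa. Without surface wild 1 and 2 the number called was 962. Leaving out any single library other than surface wild 3 (2097) or surface lab 3 (2216) also gave fewer than the 1653 of the main fit. The lowest such number was 1007, without cave wild 2.

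The shared differences were mostly of moderate size, and many belonged to genes without a name. Of the 587, 434 differed by at least 1 on the log2 scale, 160 by at least 2, 54 by at least 3 and 19 by at least 4. The median size was 1.43, against 0.376 for all tested genes, as the rule selects large differences. Genes without a name made up 247 of the 587 (42.1%), against 20.02% of tested genes and 33.0% of called genes. Among the 160 that differed by at least 2, 92 had no name (57.5%). The median level in the higher form was 5.24 scaled TPM, close to the 5.36 of all tested genes; 195 genes reached a mean of 10 and 47 a mean of 100. The gap between the nearest libraries of the forms was under 0.1 on the log2 scale for 114 genes and at least 1 for 83. Just inside the rule stood hltf, with a lowest cave level and a highest surface level both of 4.74; its call was lost with TPM as deposited, with no filter and without any of 5 single libraries. Just outside stood ak8, whose surface livers were all at 0 and whose lowest cave liver was also at 0.

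**Figure D2:**
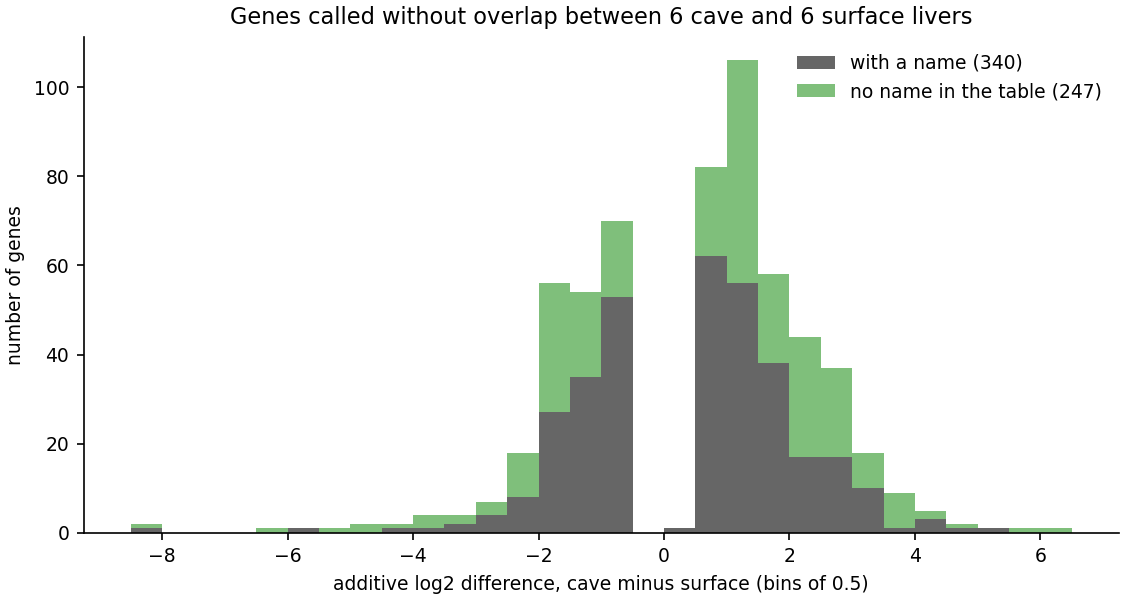
Number of shared genes (y axis) by additive log2 difference, cave minus surface (x axis, bins of 0.5), with 340 named genes in grey and 247 unnamed genes in green. Of the 587, 426 lie between 0.5 and 2 in size, and both tails hold named and unnamed genes.

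Among named genes the largest rises in cave livers were those of afp4, mdka, prr15lb, cngb3.2 and accs. The gene afp4 encodes a small secreted protein related to fish antifreeze proteins. Its level was 2677, 1107 and 2038 scaled TPM in the cave wild livers and 592, 332 and 1278 in the cave lab livers. Surface wild livers held 1.08, 104 and 168, and surface lab livers 13.7, 29.6 and 268. The highest surface liver was thus close to the lowest cave liver, and the log2 difference was 4.73 ± 1.05 (adjusted p = 0.013). The call for afp4 was lost with the vtg3 covariate.

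The gene mdka encodes midkine, a secreted heparin-binding growth factor. Cave livers ranged from 8.44 to 101 with a median of 31.7, and surface livers from 0.185 to 2.21 with a median of 0.63. The difference was 4.19 ± 0.55 (adjusted p = 4.9e-04), and the highest values, 95.6 and 101, were those of cave wild 2 and 3. Its relative mdkb, chosen after its values were seen, went the other way at -1.44 ± 0.44, with an adjusted p of 0.0499 and overlapping libraries; that call was lost when any of 9 single libraries was left out.

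A pair of cone photoreceptor channel genes was near 0 in surface livers and present in cave livers. The gene cngb3.2 encodes a beta subunit of the cyclic nucleotide-gated channel of cones. It was at 10.9, 23.4 and 32.7 in cave wild livers and at 10.62, 8.17 and 28.1 in cave lab livers. It was listed at 0 in 4 of the 6 surface livers, and the other two, both wild-caught, held 0.111 and 0.158. The difference was 4.08 ± 0.30 (adjusted p = 3.9e-06). The alpha subunit gene cnga3a, chosen after its values were seen, was low in both forms, at 0.728 to 1.66 in cave livers and at most 0.00926 in surface livers, with a difference of 1.13 ± 0.14.

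The other large rises differed in spread. The gene accs, named for a plant enzyme of ethylene synthesis to which it is related, ranged from 11.1 to 21.7 in cave livers and from 0.0456 to 0.921 in surface livers. Its difference of 3.58 ± 0.19 (adjusted p = 4.3e-07) was 3.80 in wild-caught and 3.37 in laboratory fish. The gene nisch, which encodes the cytosolic integrin-binding protein nischarin, ranged from 11.6 to 39.8 and from 0.685 to 2.11, a difference of 3.38 ± 0.24. The kinesin motor gene kif1ab rose by 3.43 ± 0.43, with 76.2 in cave lab 1 and at most 15.6 in the other cave livers, against at most 0.426 in surface livers. The gene arhgef19 ranged from 9.39 to 26.9 in cave livers and was at 7.21 in surface lab 3, against a surface median of 0.053. Also among the 12 largest rises were prr15lb (4.08 ± 0.44), si:ch211-191i18.2 (3.40 ± 0.51), dao.3, a D-amino acid oxidase gene (2.85 ± 0.41), and serpine3, of the serpin family of protease inhibitors (2.80 ± 0.47).

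The largest fall was that of cbln5, which encodes a secreted cerebellin-like protein with a C1q domain. It was listed at 0 in 5 of 6 cave livers and at 0.399 in cave lab 3. Surface wild livers held 161, 202 and 428 scaled TPM, and surface lab livers 278, 953 and 175. The difference was -8.12 ± 0.38 (adjusted p = 2.2e-07), -7.92 in wild-caught and -8.33 in laboratory fish. Its relative cbln17, set beside it after its values were seen, ranged from 18.4 to 674 in cave and from 17.7 to 8740 in surface livers; its difference of -3.28 ± 1.12 was not called (adjusted p = 0.070).

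**Figure D3:**
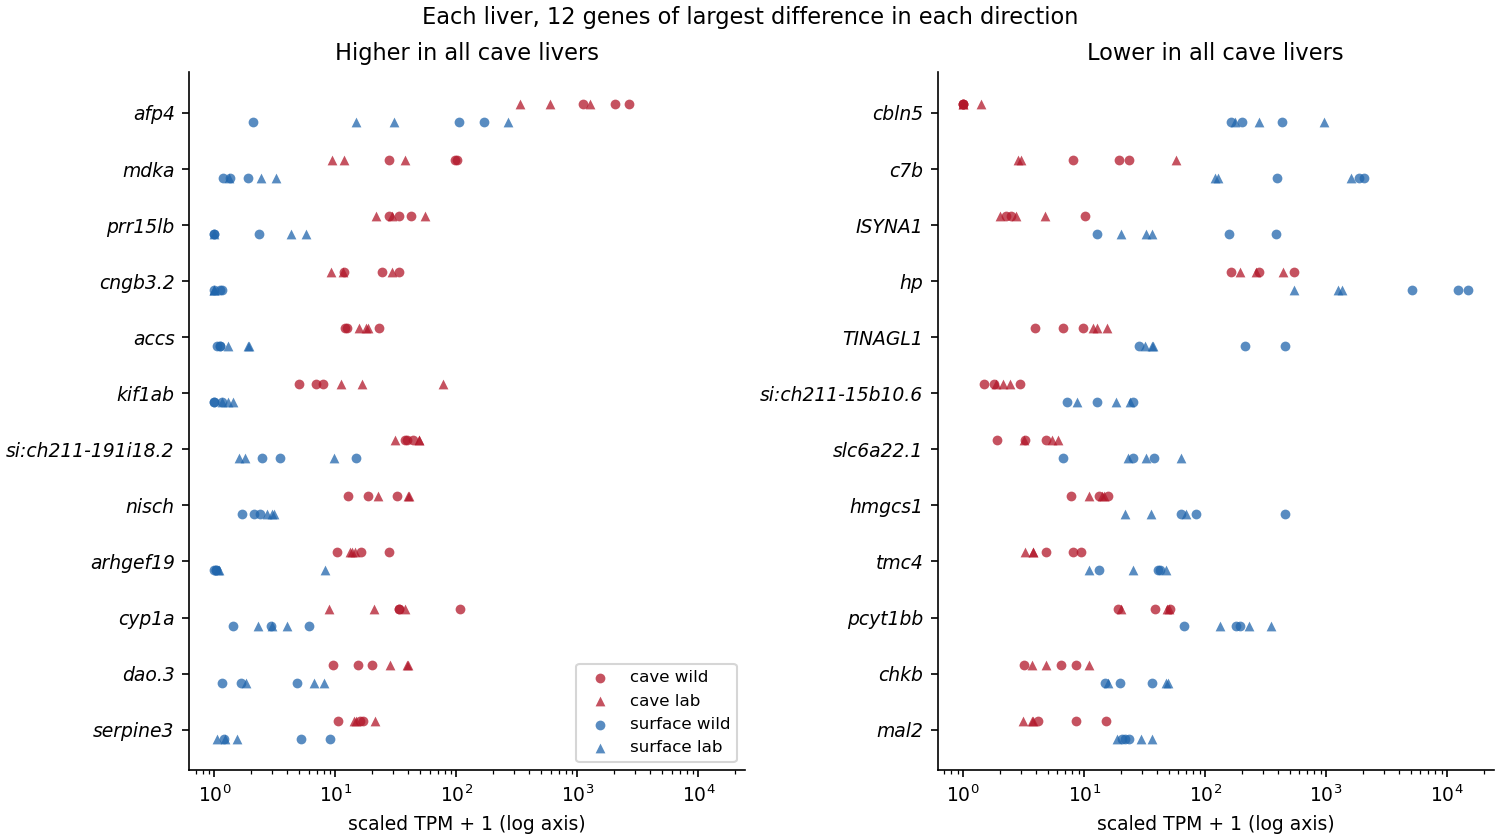
Scaled TPM + 1 on a log axis (x) for each of the 12 livers, for the 12 named genes with the largest rises (left) and falls (right); red marks cave and blue surface livers, circles wild-caught and triangles laboratory fish. In every row the red and blue marks are separate, with the widest separation for cbln5 and a narrow one for afp4 and hp.

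The largest falls after cbln5 included plasma proteins of innate defence. The complement list held 24 tested members, of which 6 were called lower (25.0%) and 1 higher, against 5.49% and 7.33% of all genes. The lower ones were c7b, cfd, c4b, c9, c6 and c3a.1, and the list median was -0.38. The single higher call was lost when any library other than surface wild 3 was left out, and the number of lower calls was 2 with the vtg3 covariate.

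The gene c7b encodes complement component C7, part of the pore that complement inserts into membranes. Cave wild livers held 18.6, 7.05 and 22.5 scaled TPM and cave lab livers 56.8, 1.84 and 2.04. Surface wild livers held 2075, 1868 and 395, and surface lab livers 1597, 121 and 128. The difference of -5.71 ± 0.87 (adjusted p = 0.0013) rested on wide spread within both forms, and even the lowest surface liver lay above the highest cave liver. Of the other pore components, c9 ranged from 604 to 1036 in cave and from 1128 to 2612 in surface livers, a difference of -1.1 ± 0.26 whose call was lost without surface wild 1 and 2. The gene c6 was called at -1.05 with overlap. Genes c8b, c5 and C8A were not called, at -0.15, -0.73 and -0.45.

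In the acute phase list, 4 of 21 tested members were called lower (19.0%) and 2 higher (9.52%), against 5.49% and 7.33% of all genes. With the vtg3 covariate the list had 1 lower and 0 higher calls. The gene hp encodes haptoglobin, which binds haemoglobin released into plasma. Cave livers ranged from 164 to 542 scaled TPM. Surface wild livers held 12382, 15023 and 5135, and surface lab livers 1253, 547 and 1351, so the lowest surface liver nearly met the highest cave liver. The difference was -3.43 ± 0.61 (adjusted p = 0.0037), at -5.08 in wild-caught and -1.78 in laboratory fish; the test of that inequality had an adjusted p of 0.056. The receptor gene il6r, through which interleukin 6 acts on hepatocytes, ranged from 60.4 to 78.7 in cave and from 143 to 281 in surface livers (-1.59 ± 0.24). The gene stat3, which carries the interleukin 6 signal to the nucleus, was called at -1.70 ± 0.43 with overlap. Its call was lost without cave wild 2 or surface wild 2, and the lower calls of the list then numbered 2. The 2 higher calls were fetub and ahsg2, of the fetuin family, at 1.07 and 1.06; neither was called without cave wild 1, 2 or 3 or without cave lab 3, and 1 was called without any of 6 other libraries.

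Of 21 tested coagulation and serpin genes, 2 were called higher (9.52%) and 1 lower (4.76%), near the 7.33% and 5.49% of all genes. Among them serpine3 was called higher and f7i lower, both without overlap. The symbol proca1 was also matched in this list and called higher (1.21 ± 0.24), but it names a protein that interacts with cyclin A1 and is not a clotting gene. The gene f7i, related to clotting factor VII, ranged from 14.7 to 38.9 in cave and from 42.6 to 75.5 in surface livers (-1.42 ± 0.27). The list median was -0.16, against -0.02 for all genes.

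The 12 largest falls also held enzymes of membrane lipid, inositol and sterol synthesis. The gene chkb encodes choline kinase beta, the first enzyme of that branch, and ranged from 2.16 to 9.97 in cave and from 13.8 to 48.5 in surface livers. The gene pcyt1bb encodes the CTP-phosphocholine transferase that sets the rate of the same branch, and ranged from 18 to 49.9 and from 66.1 to 351. Their differences were -2.25 ± 0.40 and -2.29 ± 0.40 (adjusted p = 0.0037 and 0.0034). The isoenzyme genes chka, pcyt1aa and pcyt1ab, chosen after their values were seen, were not called, at 0.70, -0.32 and -0.55. Without surface wild 1 and 2, chka was called higher in cave livers at 1.5 (adjusted p = 0.0051), opposite in direction to chkb.

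ISYNA1, the synthase that makes inositol from glucose 6-phosphate, ranged from 1.01 to 9.18 in cave livers. It was at 381 and 156 in surface wild 1 and 2 and between 11.7 and 35.3 in the other 4 surface livers, a difference of -3.92 ± 0.71 (adjusted p = 0.0042). The gene hmgcs1, which encodes the synthase at the head of cholesterol synthesis, ranged from 6.73 to 14.8 in cave livers. It was at 457 in surface wild 1 and between 20.8 and 82.3 in the other surface livers (-2.52 ± 0.54). Of 30 sterol synthesis genes, hmgcs1 and insig2 were the only ones called, a share of 6.67% lower that is near the 5.49% of all genes. The call for insig2 (-0.77 ± 0.23) was lost without surface wild 1 and 2 and with TPM as deposited, and the list median was -2.57 in wild-caught but 0.24 in laboratory fish. The calls for ISYNA1, hmgcs1 and chkb were lost with the vtg3 covariate, and all 3 held without surface wild 1 and 2.

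TINAGL1, a secreted matrix-associated protein gene, followed a like pattern, at 212 and 453 in surface wild 1 and 2 and 27.2 to 35.8 in the other surface livers, against 2.91 to 14.4 in cave livers (-2.93 ± 0.69). The transporter gene slc6a22.1 (-2.77 ± 0.42), the channel-like gene tmc4 (-2.35 ± 0.39), mal2, which acts in transport of proteins across polarised cells (-2.19 ± 0.36), and si:ch211-15b10.6 (-2.81 ± 0.32) completed the 12 largest falls.

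Called enzymes of hormone, carotenoid and foreign compound turnover were mostly higher in cave livers. The list of steroid, thyroid hormone and retinoid metabolism had 5 of 21 tested members called higher (23.8%, against 7.33% of all genes). None was called lower, and at an unadjusted p under 0.05 limma had 8 higher and 0 lower. Of the 5, 4 were without overlap, against 587 of the 1653 called over all genes. The gene hsd11b1la, related to the enzyme that interconverts cortisone and cortisol, ranged from 33.0 to 176 in cave and from 4.56 to 30.1 in surface livers. Its difference was 2.46 ± 0.31 (adjusted p = 3.8e-04) and was 2.46 in each environment. The carotenoid-cleaving oxygenase gene bco2a ranged from 33.0 to 57.2 and from 3.75 to 27.9 (2.02 ± 0.36). The low genes hsd20b2, which acts on cortisone in zebrafish, and hsd17b3, of testosterone synthesis, rose by 1.92 ± 0.37 and 1.26 ± 0.27. The thyroid hormone deiodinase gene dio1 was called at 2.6 with overlap, at 4.46 in wild-caught and 0.74 in laboratory fish; that call was lost without any of 8 single libraries. The list median was 0.22. With TPM as deposited it was -0.01, and 5 members were still called but 1 had no overlap. The number called was 3 without surface wild 1 and 2 and 2 with the vtg3 covariate.

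Among 31 genes of foreign compound metabolism, 5 were called higher (16.1%) and 1 lower (3.23%), against 7.33% and 5.49% of all genes. The gene cyp1a, a monooxygenase gene induced through the aryl hydrocarbon receptor, was at 32.4, 32.7 and 105 in cave wild and 7.91, 19.8 and 36.2 in cave lab livers. Surface livers ranged from 0.426 to 5.0, and the difference was 3.37 ± 0.48 (adjusted p = 8.8e-04). Its relatives cyp1c1 and cyp1b1, chosen after their values were seen, were too low to be tested. The gene cyp1c1 went the other way without overlap, at 0 to 0.277 in cave and 0.53 to 1.2 in surface livers. The gene cyp1b1 overlapped, at 0.168 to 0.465 and 0.0278 to 0.294. The gene cyp3a65, of the family that oxidises many drugs and steroids, ranged from 26.8 to 46.6 and from 3.06 to 21.39 (1.74 ± 0.31). The other 3 higher calls were copies of gstt1b, whose reads near-identical copies may share. The list had 3 higher and 3 lower calls without surface wild 1 and 2 together, and 2 higher calls with the vtg3 covariate. It had 3 higher calls without any single one of cave wild 1, 2 or 3 or surface wild 1 or 2, and the lower call, cyp20a1, was lost without any of 9 single libraries.

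Clock genes were higher in cave livers where they were called. Of 43 tested genes of the circadian clock and light response, 11 were called higher (25.6%, against 7.33% of all genes) and none lower; at an unadjusted p under 0.05 limma had 21 higher and 2 lower. The list median was 0.45, at 0.70 in wild-caught and 0.52 in laboratory fish. Many of the 11 are repressors of the clock or outputs that follow it closely: the nuclear receptors nr1d1, nr1d2a, nr1d2b and nr1d4b, the period genes per1a, per1b and per3, cry1a and bhlhe41, and the output factors dbpa and dbpb. The sources used here do not give the hour of dissection, and its part in these levels was not tested.

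The gene nr1d1, which represses the activator bmal1, was at 9.02, 15.4 and 9.43 in cave wild and 7.37, 14.0 and 17.1 in cave lab livers. Surface wild livers held 2.01, 1.35 and 1.69, and surface lab livers 2.66, 5.50 and 2.31. The difference was 1.89 ± 0.25 (adjusted p = 5.7e-04). The gene dbpb ranged from 2.88 to 10.59 and from 0.352 to 1.94 (1.75 ± 0.25). The light-responsive repressor cry1a ranged from 17.0 to 27.8 and from 8.65 to 14.4, a smaller difference of 0.78 ± 0.19. The other 8 overlapped, among them per1a (1.88 ± 0.38), per3 (1.82 ± 0.40), nr1d2b (1.78 ± 0.31) and dbpa (1.52 ± 0.29). With TPM as deposited 7 were called and cry1a was not. With the vtg3 covariate 8 were called higher and 1 lower, 2 of the higher ones were without overlap, and cry1a was not called. Library weights, and leaving out surface lab 2, also gave 1 lower call each. Without surface wild 1 and 2 the list median was 0.45 and the difference of cry1a was 0.68. The number of clock genes without overlap was 7 without cave wild 1, 6 without surface lab 2 and 5 without cave lab 1 or surface lab 3.

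**Figure D4:**
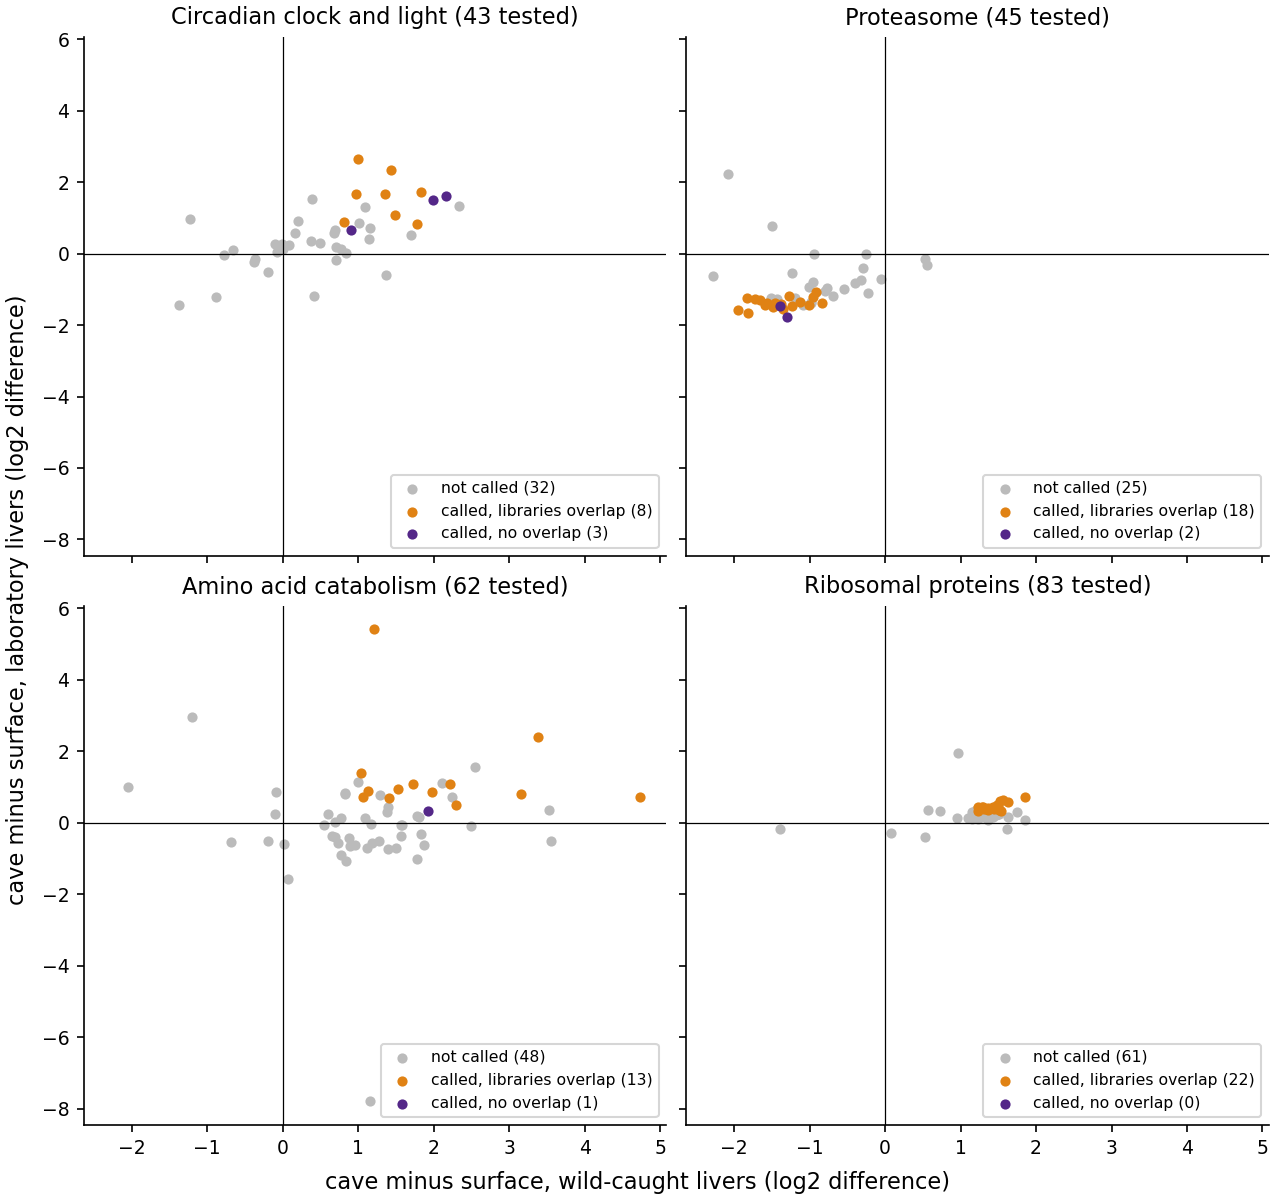
Cave minus surface log2 difference in wild-caught (x axis) and laboratory livers (y axis) for each tested member of 4 lists, with grey for genes not called, orange for called genes whose libraries overlap and purple for shared genes. Most proteasome genes lie low on both axes, called clock genes lie high on both, and ribosomal and amino acid genes lie mainly to the right. Exceptions in the proteasome list include psmb8a (-2.07 in wild-caught, 2.21 in laboratory livers) and psmb13a (-1.50 and 0.78).

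Proteasome subunits, the proteolytic complex that degrades ubiquitin-tagged proteins, had the highest called share among the pathway lists with at least 10 tested members. Of 45 tested members, 20 were called lower (44.4%, against 5.49% of all genes) and none higher; at an unadjusted p under 0.05 limma had 33 lower and 0 higher. The list median was -1.18, at -1.13 in wild-caught and -1.23 in laboratory fish. Libraries overlapped for 18 of the 20, against 1066 of the 1653 called over all genes (64.5%), and the exceptions were psmd2 and psmc2. Shared members were thus 2 of 45, near the 4.55% of all tested genes. The base subunit gene psmd2 was at 28.4, 10.5 and 17.3 in cave wild and 21.2, 16.7 and 18.4 in cave lab livers, against 42.3, 79.7 and 30.9 in surface wild and 81.0, 57.3 and 32.5 in surface lab livers. The ATPase gene psmc2 was at 49.8 in cave wild 1 and from 20.2 to 27.4 in the other cave livers, against 52.2 to 144 in surface livers. The differences were -1.43 ± 0.32 and -1.54 ± 0.35 (adjusted p = 0.013 and 0.014). The largest falls were those of the regulatory particle genes psmd13 and psmd1, at -1.76 ± 0.43 and -1.74 ± 0.40.

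The proteasome count depended on single libraries. Without cave wild 1 the called members numbered 27, and 22 had no overlap. The called number was 8 without cave wild 2, 9 without cave wild 3, surface wild 2 or surface lab 1, 10 without cave lab 2, and 11 without cave lab 3 or surface lab 2. Without surface lab 3 it was 30, with 11 genes free of overlap, and with TPM as deposited 29 were called, 10 of them without overlap. It was 3 without surface wild 1 and 2 and 0 with the vtg3 covariate, while the list median stayed between -1.43 and -1.01 in all of these fits.

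Genes of the unfolded protein response and of chaperones had called members in the same direction. Of 50 tested genes of the endoplasmic reticulum list, 6 were called lower (12.0%, against 5.49% of all genes) and none higher. At an unadjusted p under 0.05 limma had 22 lower and 1 higher. The list had a median of -1.62 in wild-caught and -0.23 in laboratory fish. One of its members, a copy of ssr2, a translocon-associated protein gene, was shared. That copy (ENSAMXG00000036600) ranged from 3.89 to 30.4 in cave and from 42.4 to 169 in surface livers (-3.10 ± 0.27, adjusted p = 2.0e-05). The copy written SSR2 (ENSAMXG00000010200) ranged from 81.6 to 689 and from 74.7 to 346 and was not called (0.47 ± 0.32); reads shared by the copies may have been split between them. The endoplasmic reticulum list had 17 lower calls without surface lab 3 and 3 without surface lab 2, surface wild 2, cave wild 2 or cave wild 3. Of 31 heat shock genes, 5 were called lower (16.1%, against 5.49% of all genes) and none higher, all with overlap. At an unadjusted p under 0.05 limma had 8 lower and 0 higher. Leaving out a single library gave from 1 to 8 lower calls. With the vtg3 covariate the lower calls numbered 1 in the endoplasmic reticulum list and 0 in the heat shock list. The list medians were then -0.28 and -0.38. Without surface wild 1 and 2 they were -0.57 and -0.24.

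Some amino acid breakdown and ribosomal protein genes were called higher, with overlap for all but 1 of those called; over all genes, 1066 of the 1653 called (64.5%) had overlap. Of 62 amino acid catabolism genes, 14 were called higher (22.6%, against 7.33% of all genes) and none lower, and 1, mcee, had no overlap. At an unadjusted p under 0.05 limma had 26 higher and 1 lower. The call for mcee, an enzyme gene of propionate breakdown (1.12 ± 0.33), was lost without any of 8 single libraries. The list median was 1.2 in wild-caught and 0.15 in laboratory fish. The gene ido1, which opens the breakdown of tryptophan, ranged from 13.9 to 57.7 in cave and from 0.356 to 16.1 in surface livers (2.90 ± 0.39). The mitochondrial serine and glycine enzyme gene shmt2 was called at 1.42 ± 0.32 and bckdha, of branched-chain keto acid breakdown, at 1.22 ± 0.25. The gene hpdb, of tyrosine breakdown, was called at 3.31 ± 0.79, at 1.21 in wild-caught and 5.41 in laboratory fish. The called number fell to 7 when surface wild 2, cave wild 2 or cave wild 3 was left out, and was 24 without surface lab 3, 4 without surface wild 1 and 2, and 2 with the vtg3 covariate.

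Of 83 tested members of the ribosomal protein list, 22 were called higher (26.5%, against 7.33% of all genes) and none lower. That list was matched by name pattern and includes rps6kl1, a kinase-like gene that was not called (0.46). At an unadjusted p under 0.05 limma had 75 higher and 0 lower. None of the 22 was free of overlap. The list median was 1.39 in wild-caught and 0.29 in laboratory fish. The gene rps19 was called at 1.29 ± 0.28, at 2224 to 11815 in cave and 1045 to 3231 in surface livers. The summed share of ribosomal protein genes was 16.7% to 37.0% in cave and 11.6% to 24.2% in surface livers (two-sided exact permutation p = 0.010, adjusted 0.0525). The called number was 72 without surface lab 3, 39 without cave lab 1, and from 1 to 8 without any single one of the other 10 libraries. It was 51 with TPM as deposited, 48 with quantile scaling, 35 without the 50 most abundant genes in the factors, 73 with 4 group means, 37 with library weights, 14 with a pseudocount of 0.1 and 3 with no filter. It was 0 without surface wild 1 and 2 and with the vtg3 covariate.

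**Figure D5:**
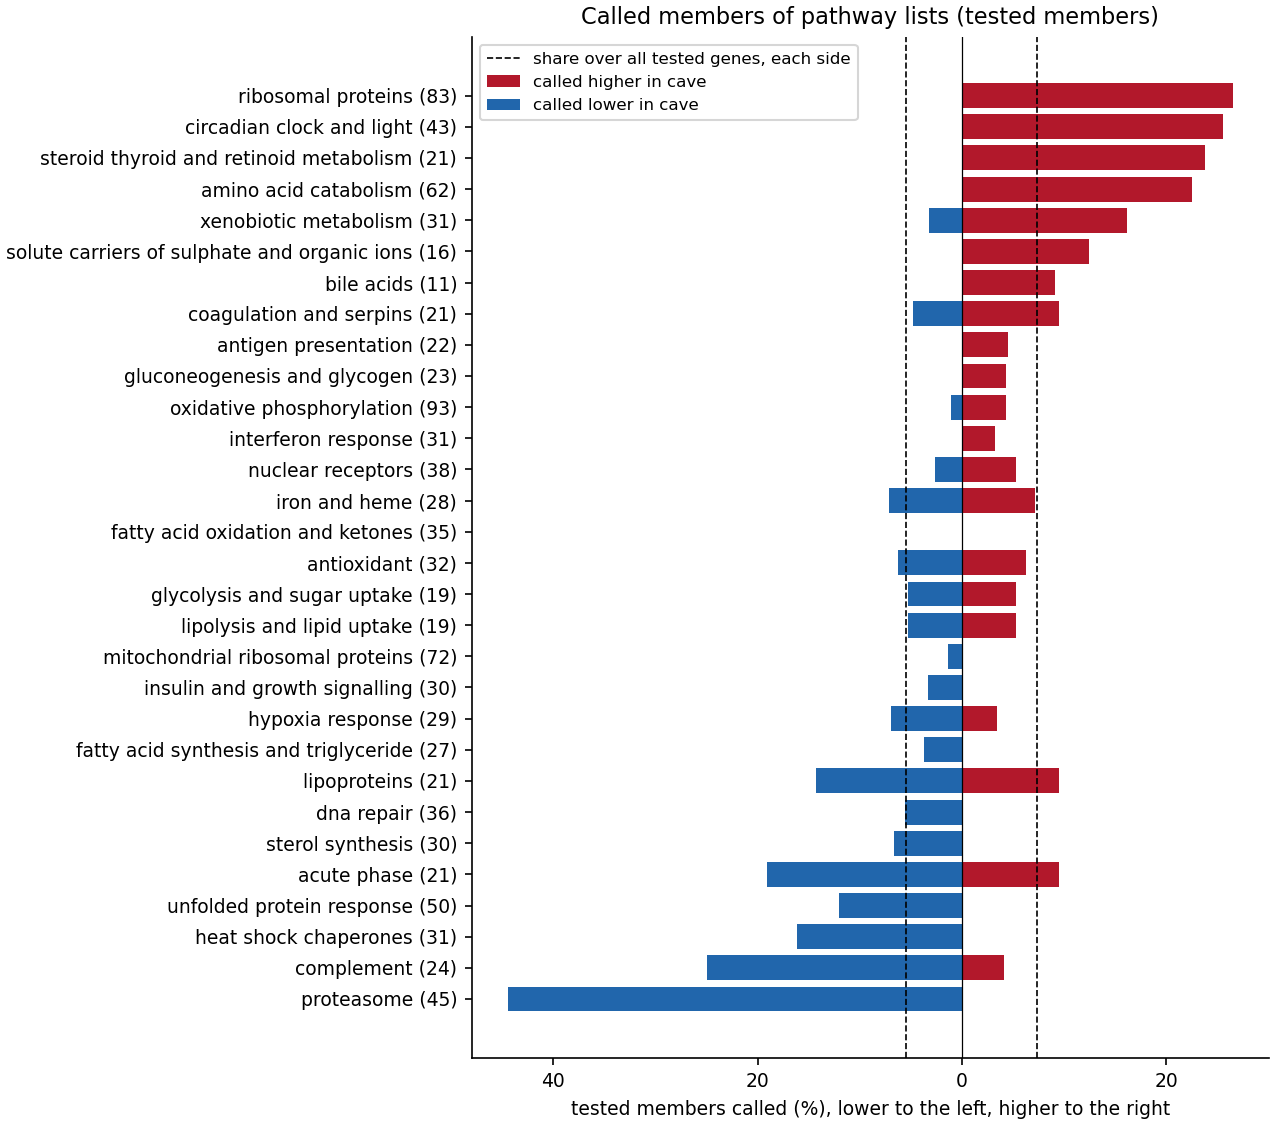
Share of tested members called higher (red, to the right) or lower (blue, to the left) in cave livers for each pathway list with at least 10 tested members, given in parentheses; dashed lines mark the shares over all tested genes, 7.33% and 5.49%. The proteasome list reaches 44.4% lower, and the ribosomal, clock, steroid and amino acid lists exceed 20% higher.

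Among fuel and lipid genes, 1 of 19 sugar and 1 of 21 lipoprotein members was shared, near the 4.55% of all tested genes. The lists of fatty acid synthesis and triglyceride (27 tested) and of lipolysis (19) had 0 shared members. Called lipoprotein genes were 2 higher (9.52%) and 3 lower (14.3%), against 7.33% and 5.49% of all genes, and 4 of them had overlap. None of 35 fatty acid oxidation and ketone genes was called by limma in the additive model, against 12.8% of all genes. At an unadjusted p under 0.05, 4 of the 35 were higher and 2 lower. The medium-chain dehydrogenase gene acadm of that list was at 1.06 ± 0.57 (adjusted p = 0.22). The fructokinase gene khk was the shared member of the sugar list, at 79.4 to 146 in cave and 5.55 to 75.4 in surface livers (2.23 ± 0.43). The desaturase gene fads2 was not called, at 2.34 ± 0.73 (adjusted p = 0.053). The lipid droplet coat gene plin2 was called at -2.07 ± 0.61 and the leptin gene lepa at -3.10 ± 0.68, both with overlap; plin2 was no longer called without any of 9 single libraries. A copy of the apolipoprotein gene apoa4a (ENSAMXG00000039639) was below 1 scaled TPM in every cave liver and ranged from 1.4 to 517 in surface livers (-4.41 ± 1.00, call lost without surface wild 1 and 2).

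Mitochondrial and antioxidant genes were mixed. Of 93 oxidative phosphorylation genes, 4 were called higher (4.30%) and 1 lower (1.08%), both below the background. The shared members were the complex IV subunit genes cox5b2, at 56.8 to 132 in cave and 9.43 to 41.8 in surface livers (1.73 ± 0.36), and cox8b (1.58 ± 0.36). The gene prdx3, a mitochondrial peroxidase gene, was higher at 1.43 ± 0.36, and txnrd3, of the thioredoxin reductase family, was lower at -1.61 ± 0.34. The call for prdx3 was lost without surface wild 2 or surface lab 1, and that for cox8b without surface wild 1 and 2 together. The higher calls of the oxidative phosphorylation list numbered 2 without any of 8 single libraries. The liver regulator gene hnf4b ranged from 25.2 to 51.4 in cave and from 51.9 to 92.2 in surface livers (-1.07 ± 0.24), and its relative hnf4a was not called (-0.23 ± 0.33).

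Of 116 tested markers in 16 cell type lists, 5 were shared (4.31%), near the 4.55% of all tested genes. They were lgmn (lower, of 13 macrophage markers), bmp15 (of 2 germ cell markers), anpepb (the 1 intestine and kidney marker tested), smpx (the 1 muscle marker tested) and cdk1 (of 7 proliferation markers). The summed macrophage markers ranged from 86.1 to 261.9 scaled TPM in cave and from 220.4 to 365.2 in surface livers (two-sided exact permutation p = 0.005, the smallest that the 400 orders can give; adjusted 0.035). The lysosomal protease gene lgmn, at -1.81 ± 0.32, was the only one of the 13 that was called. The median log2 difference of the macrophage markers was -0.01, at -0.74 in wild-caught and 0.72 in laboratory fish. Sums for germ cells and for intestine and kidney had the same p of 0.005. Of their members, bmp15 ranged from 2.32 to 8.88 in cave against 0.292 to 2.23 in surface livers, and anpepb from 15.4 to 30.6 against 0.037 to 11. The intestine and kidney sum, at 16.8 to 31.4 against 1.01 to 11.7, was mostly anpepb. The macrophage, germ cell and intestine and kidney sums each hold a shared gene that the rule required to be free of overlap. The p-values of these sums are thus no support apart from the rule. In laboratory fish the germ cell sum had means of 5.01 in cave and 3.01 in surface livers. The means of bmp15 there were 2.46 and 2.02, so other members held much of that difference. The call for bmp15 was lost without any of 7 single libraries. The part of such cells in the gene differences was not tested. None of the 10 cholangiocyte, 8 stellate and fibroblast or 5 neutrophil markers was called by limma; at an unadjusted p under 0.05 these held 1 lower, 0 and 1 higher. Of 5 egg yolk and oestrogen response genes, fam20cl (4.12 ± 0.82) and nots (3.71 ± 0.94) were called higher with overlap, and the list median was 3.33. Of 15 exocrine pancreas markers, 2 were called lower with overlap (list median -0.86). Of 13 endothelial and of 13 erythrocyte and thrombocyte markers, 1 each was called higher with overlap. Besides cdk1, 1 of the 7 proliferation markers was called, lower and with overlap (list median -0.17). Of 16 hepatocyte markers, apobb.1 was called higher and c3a.1 and fgg lower, all with overlap. The calls for apobb.1 and fgg were each lost without any of 9 single libraries, and that for c3a.1 without any of 8.

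The unnamed genes held some of the largest differences. ENSAMXG00000033138 was at 15.9, 26 and 21.7 in cave wild and 324, 271 and 338 in cave lab livers, and at most 0.0841 in surface livers (6.30 ± 0.57). It was higher in both environments but by different amounts, 4.36 in wild-caught and 8.24 in laboratory fish (interaction adjusted p = 2.3e-04). ENSAMXG00000035519 ranged from 181 to 265 in cave and from 0 to 69.7 in surface livers (5.88 ± 0.80). ENSAMXG00000018103 was listed at 0 in 5 cave livers and at 150 in cave wild 1, against 241 to 938 in surface livers (-8.01 ± 1.1). ENSAMXG00000032562 ranged from 0.457 to 1.33 and from 10.1 to 742 (-6.27 ± 0.97). A further 3 genes were listed at 0 in every cave liver while each surface liver held at least 1 TPM, and 3 genes showed the reverse; all 6 were without a name. More broadly, 82 shared genes were under 1 scaled TPM in every surface liver and at 1 or more in every cave liver, and 29 the reverse; with TPM as deposited these were 47 and 30.

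The rule bears on the count of shared genes with a called interaction of form with environment, as it admits only genes of 1 direction. A gene without such a call is not shown to differ equally in both environments. Over all tested genes, leaving out 1 library gave from 113 to 1337 interaction calls. The interaction was past the threshold for 20 of the 587 (3.41%), against 271 of all tested genes (2.1%). In the named ones the signs agreed but sizes did not: adh5, an alcohol dehydrogenase gene, differed by 3.26 in wild-caught and 0.54 in laboratory fish. The genes rgs11, a regulator of G protein signalling, and alpl, alkaline phosphatase, differed more in laboratory fish, at -3.29 against -1.37 and at -2.82 against -1.02. These 3 were chosen after their values were seen. Environment was called for 31 of the 587 (5.28%), against 2744 of all tested genes (21.3%), and the demand for no overlap disfavours genes that vary with environment.

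Position was examined by symbol on the AstMex3_surface assembly, where 256 of the 587 could be matched. Of 3572 neighbouring pairs of tested genes, 7 joined 2 shared genes, and 6 of these moved in the same direction. Matched tested genes numbered 8475 in all. The number of such pairs under random placement was not computed, nor was the share of like direction over all pairs, so no clustering is claimed. One pair was accs with si:ch211-256a21.4, which ranged from 3.92 to 10.9 in cave and from 0 to 0.526 in surface livers (2.49 ± 0.21). The others of like direction were c9 with dab2, cdk1 with tmem26a, proca1 with zgc:174895, zgc:174895 with rab34a, and kcnj8 with abcc9. Whether neighbours share reads or control was not tested.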

How the data were processed

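Poly(A) RNA of 12 adult livers was sequenced from stranded TruSeq libraries as single reads of 75 nt, per the labels' protocols. The authors deposited 1 table of TPM values per gene and library; per the submitters' processing notes the tools were bcl2fastq 2.18, STAR 2.6.1c and RSEM, with version, genome build and annotation not given in the sources used here. TPM carries no read counts, so precision from depth cannot be stated. Labels do not say that livers within a group came from separate tanks or catches, so p-values measure the spread between these fish.

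Genes at 1 TPM or more as deposited in at least 3 libraries were kept. Values were divided by median-of-ratios factors and analysed as log2(value + 1) with limma 3.58.1 in R 4.3.3 (eBayes with trend). The additive model had form and environment as terms; a model of 4 group means gave the difference in each environment and the interaction. Tests were two-sided with Benjamini-Hochberg adjustment over the 12895 genes. Library values were tested by exact permutation of form within environment (400 orders). The pipeline was also tested on simulated data.

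Named genes were the 12 largest rises and falls among shared genes with a unique symbol, a difference of at least 1 in both environments and a mean of at least 10; the 2 largest unnamed genes in each direction; for each list up to 3 shared members by adjusted p, or else the most abundant; and the genes nearest the limit of overlap. Other called list members and relatives were chosen after their values were seen. Members and lists were chosen with earlier results of these data known. Same-numbered libraries of the forms did not pair (18 residual correlations, -0.206 to 0.276; the 3 above 0.1 were all between surface wild and surface lab), so the block is an alternative. Others were scaling, pseudocount, filters, library weights, a vtg3 covariate and leaving out libraries. Gene names came from the table; RefSeq symbols served only to find neighbours.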

Additional observations from a re-analysis of the deposited data

Results flagged for a closer look

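In each group of 6 livers of a form, the library farthest from the others was compared with the group's range, for the 112 genes examined by name. Of 224 groups, 14 had a library past the limit. That limit is set at about 1 in 20 for livers of 1 population. Each group here mixes wild-caught and laboratory livers, and the genes were selected, so that rate does not apply. Groups whose livers all held the same value were counted but could not be flagged. In cave wild 1, ENSAMXG00000018103 was at 150 scaled TPM, psmc2 at 49.8, prdx3 at 243 and per1a at 4.79. In cave wild 2, txnrd3 was at 2.92 and si:ch211-256a21.4 at 10.9, and in cave wild 3 ido1 was at 13.9. In cave lab 1, g6pca.2, a glucose 6-phosphatase gene that was not called (0.94 ± 0.48), was at 4050, and in cave lab 3 cbln5 was at 0.399. In surface wild 1, g6pca.2 was at 171, in surface wild 2 cox8b was at 9.51, and in surface wild 3 hnf4b was at 51.9. In surface lab 3, arhgef19 was at 7.21 and hpdb at 13.9.

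The form difference itself differed between environments for 5 of the genes examined by name, against 271 of all tested genes (2.1%). Of these, adh5, rgs11 and alpl had been chosen after their values were seen, so the count of 5 is no result of its own. For ENSAMXG00000033138 the wild-caught difference minus the laboratory difference was -3.89 (interaction adjusted p = 2.3e-04, limma). For bmp15 it was 1.84 (adjusted p = 0.035), with 2.03 in wild-caught and 0.20 in laboratory fish. For adh5 it was 2.72 (adjusted p = 0.040), for rgs11 1.92 (adjusted p = 0.019) and for alpl 1.80 (adjusted p = 0.021).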

How the results depend on the processing

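Of the 587 shared genes, 345 met all conditions with TPM as deposited, 528 with quantile scaling, 576 without the 50 most abundant genes in the factors, 580 with a pseudocount of 0.1, 548 with no filter, 564 with the replicate block, 587 with 4 group means, 574 with library weights, 472 without surface wild 1 and 2, and 355 with the vtg3 covariate; leaving out 1 library kept from 522 to 582. With a filter at 5 TPM, which left 317 of the 587 tested, 1013 genes were called, 530 of them higher, and 317 were shared (183 higher, 134 lower), as fewer genes were tested; the interaction then had 177 calls and the laboratory comparison 363. With TPM as deposited, 194 shared genes were higher, and calls numbered 655 for the interaction, 4274 for environment and 4074 within wild-caught fish. Without surface wild 1 and 2, 962 were called (554 higher, 408 lower), with 97 for the interaction, 1481 for environment and 307 within wild-caught fish, from fewer samples. With the vtg3 covariate 566 were called (353 higher, 213 lower) and 356 shared (236 higher, 120 lower), with 68 for the interaction and 190 within wild-caught fish. With 4 group means 1071 were called lower. Library weights gave 843 calls within wild-caught and 1785 within laboratory fish. The cause of the other changes was not tested.

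Leaving out 1 library at a time gave 1007 to 2216 called genes (620 to 1204 higher, 387 to 1045 lower) and 556 to 888 shared genes (351 to 524 higher, 205 to 364 lower). It gave 113 to 1337 interaction calls, 1691 to 2958 for environment, 1065 to 4053 within wild-caught fish and 433 to 885 within laboratory fish; the highest interaction and wild-caught counts came without surface wild 3. With the replicate number as a block, 1450 genes were called (845 higher, 605 lower) and 565 were shared, 256 had a called interaction, and 7 ribosomal protein genes were called in place of 22. The block ended the calls of mcee, bmp15, c3a.1, c4b, fetub, ahsg2, cyp20a1 and ak8. Same-numbered cave and surface libraries shared only a number, and 5 of 12 libraries correlated best with their own. Over the 112 genes examined by name, 118 of the values under the alternative settings lost their call, 12 gained one and 1205 kept their side; leaving out 1 library gave 129, 9 and 1206. Without read counts, the part of depth in any low value is unknown.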
